A study of Mus musculus with 4 samples.

Results

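The genes described here are those of CD1d and of the machinery that makes, loads and breaks down glycosphingolipids. The list held 33 genes, named for their known roles. A gene counted as measured where a probe set carried its current symbol or an alias as the only symbol, and the probe set with the highest mean signal over the 4 arrays stood for it. By that rule 31 of the 33 genes were measured, among 12393 genes on the arrays. No probe set stood for Kdsr or Cers6, which are not analysed here.

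RNA of mouse dendritic cells (DC) derived from bone marrow, which take up, process and present antigen, was measured on Affymetrix arrays. The cells were of the C57BL/6 strain. Immature DC (2 arrays) were compared with DC after modulation by natural killer T (NKT) cells (2 arrays). Both groups were given as the same strain and cell type. RNA came from CD11c cells according to the design text. The age of the mice, the ratio and time of culture with NKT cells, any added lipid and whether the arrays came from separate cultures are not stated in the labels, so p-values measure only the spread between these arrays.

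CD1d is an MHC class I-like molecule that displays lipids, in place of peptides, to NKT cells. It takes up a first lipid in the endoplasmic reticulum and exchanges it in late endosomes and lysosomes, where small lipid transfer proteins lift glycolipids out of membranes. The lipids themselves come from ceramide: serine and a fatty acyl chain are joined and processed to ceramide, which then becomes glucosylceramide, sphingomyelin or ceramide 1-phosphate. Lysosomal hydrolases take glycosphingolipids apart again, and the sphingosine that remains can be turned into sphingosine 1-phosphate, a signalling lipid that guides lymphocyte movement. Dendritic cells both present such lipids to NKT cells and respond to them.

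Of the DC marker list, the class II gene H2-Aa had signals of 14308 and 14860 in immature DC and 14471 and 13434 in NKT-modulated DC, and the summed signal of 12 DC markers lay between 66142 and 67787 in immature DC and between 70773 and 77892 in NKT-modulated DC. Of the 12 markers 2 were called higher, Batf3 and Irf8 (changes of 1.74 and 0.67, adjusted p = 0.000271 and 0.00619 in limma), and 0 were called lower. The changes of 7 markers were above 0 and those of 5 below. Among the 5, Cd209a and Flt3 had changes of -0.70 and -0.54 that did not pass (adjusted p = 0.0659 and 0.0875 in limma). T and NKT cell markers moved with the groups. Of 16 measured markers 11 rose and 0 fell, and their summed signal lay between 1383 and 1477 in immature DC and between 6592 and 8423 in NKT-modulated DC. The T cell marker genes Cd3d and Cd3e were near 0 in the immature arrays, with signals between 5.38 and 10.3. In NKT-modulated DC the signals were 304 and 205 for Cd3d and 395 and 200 for Cd3e. Thy1 had signals of 82.3 and 97.8 in immature DC and 1883 and 1309 in NKT-modulated DC. Of 4 B cell markers 1 rose, of 6 neutrophil markers 1 rose, and of 6 macrophage markers 1 rose and 3 fell. Over all genes 12.9% were called. The shares were 68.8% for T and NKT cell markers and 66.7% for macrophage markers. They were 25% for B cell markers and 16.7% each for DC and neutrophil markers, and in such short lists these 3 counts are near the background. The ratio of the 3′ to the 5′ Gapdh probe sets was 1.44 and 1.76 in immature DC and 1.87 and 1.98 in NKT-modulated DC. The part of these shifts in the changes described below was not tested. In bulk RNA, fewer cells of a type and less RNA per cell cannot be told apart. For genes called higher, RNA from T or NKT cells in the sample and more RNA per DC cannot be told apart either.

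Most of the CD1d and glycosphingolipid genes did not pass the test of a difference between the groups. Cd1d2 and Sphk1, a sphingosine kinase gene, were higher in NKT-modulated DC. Cers5, a ceramide synthase gene, Cerk, the ceramide kinase gene, and Sgpp1, a sphingosine 1-phosphate phosphatase gene, were lower. These 5 of 31 genes passed an adjusted p of 0.05 in limma, or 16.1%, against 12.9% of all genes tested. By direction, 2 were higher, where 5.99% of all genes were, and 3 were lower, where 6.9% were. Of the calls over all genes 46.5% were higher, but 35.2% without further normalization, 54% with cyclic loess and 58.5% without the intensity trend of the variance. An unadjusted p under 0.05 was found for 8 of the 31 genes (25.8%) and for 28.2% of all genes. The shares were thus near the background, and the counts say nothing particular about the list.

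The changes of the list were also no larger than those over all genes. Most listed genes had signals above the array medians of 129 to 158 over all probe sets. Genes of like brightness were not compared. The median log2 change of the 31 genes was -0.04, equal to the median of all genes, and the median size of a change, sign set aside, was 0.16 against 0.26 over all genes. The 2 groups of arrays did not overlap for 15 of the 31 genes (48.4%), while 56.3% of all genes showed such separation. Intervals of 95% around each change lay wholly within a 2-fold change for 24 genes (77.4%), as they did for 67.7% of all genes. Leaving out any 1 of the 4 arrays left Cerk and Sgpp1 called, Cers5 called in 2 of those 4 fits, and Cd1d2 and Sphk1 in 0.

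**Figure D1:**
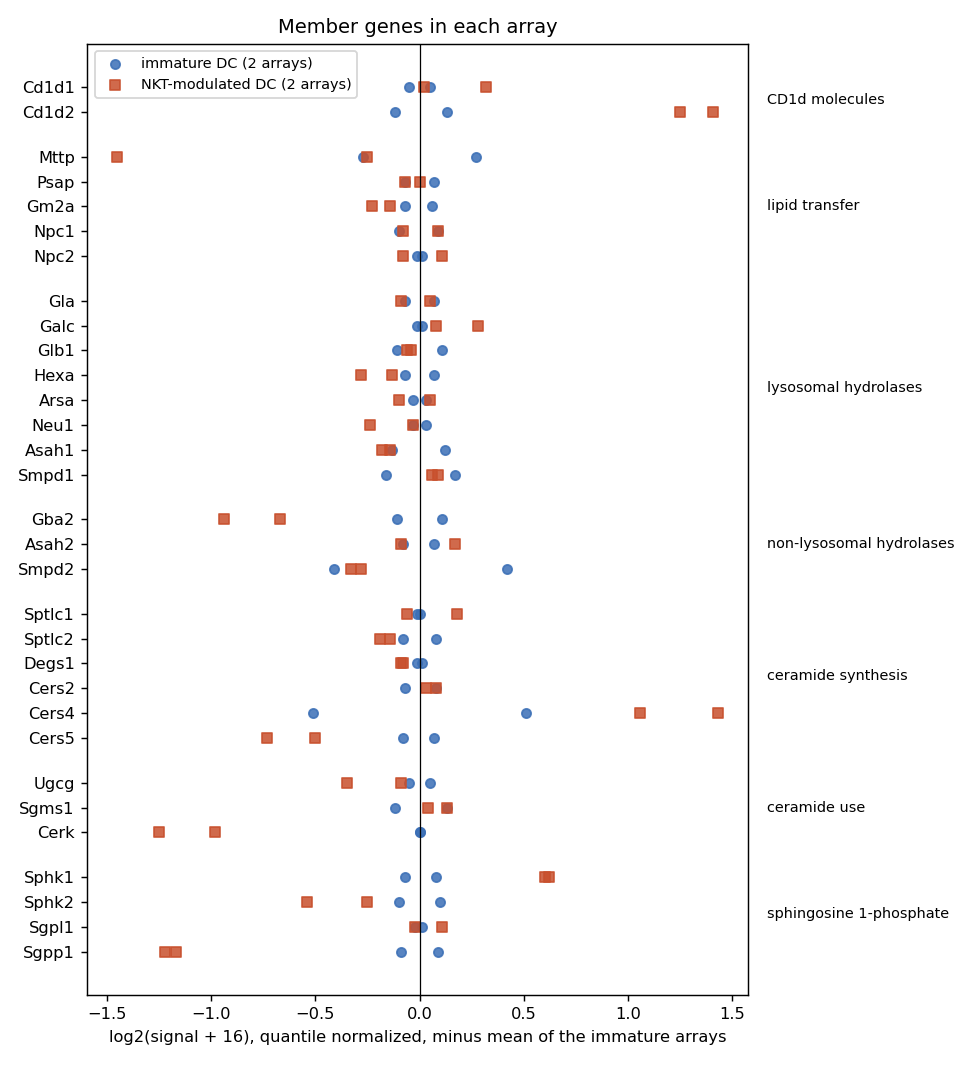
Quantile-normalized log2(signal + 16) of the 31 measured genes in each of the 4 arrays, as the difference from the mean of the 2 immature arrays (circles, immature DC; squares, NKT-modulated DC). The squares of Cd1d2 and Sphk1 lie to the right of their circles and those of Cers5, Cerk and Sgpp1 to the left, whereas the arrays of both groups intermingle or lie close together for most other genes.

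The antigen-presenting molecule itself did not pass the test. Cd1d1 encodes the CD1d protein of mice. Its signals were 2522 and 2598 in immature DC and 3246 and 2514 in NKT-modulated DC. The groups overlapped, because the lower NKT-modulated array was at the level of the immature arrays. Its log2 change, NKT-modulated minus immature here and throughout, was 0.17 ± 0.12 (SE from limma over 2 arrays a group, here and below; adjusted p = 0.454), and the 95% interval ran from -0.12 to 0.46. The other Cd1d1 probe set had a change of 0.24 ± 0.08 (adjusted p = 0.112). A 2-fold change of Cd1d1 RNA in either direction thus lay outside the interval of the brightest probe set.

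Cd1d2, the next gene to Cd1d1 in the RefSeq order of genes, is listed by RefSeq (GRCm38.p6) as a transcribed pseudogene in the C57BL/6 genome, where its reading frame is known to be disrupted. Its signals were 54.4 and 42.7 in immature DC and 130 and 140 in NKT-modulated DC. Both NKT-modulated arrays lay above both immature arrays. The log2 change was 1.33 ± 0.24, a fold of 2.51 on the scale of signal + 16 (adjusted p = 0.0215). Without any 1 of the 4 arrays the change was between 1.16 and 1.45 with an adjusted p between 0.0738 and 0.110, so the call needed all 4. Cd1d1 and Cd1d2 are close paralogs, and whether the Cd1d2 probe set separates them was not tested. It was the only probe set of Cd1d2, and no other could be set beside it.

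Of the lipid transfer genes, 0 of 5 passed the test (limma; 0 also at an unadjusted p under 0.05). Over all genes these shares were 12.9% and 28.2%, and in a list of 5 a count of 0 called is near the background. Psap encodes prosaposin, the precursor of the saposins that hand lipids to CD1d and to hydrolases. Its signals were 14950 and 12361 in immature DC and 14475 and 14085 in NKT-modulated DC, within a narrow and overlapping range. The change was -0.04 ± 0.08 (adjusted p = 0.849). Npc1 and Npc2, which together export cholesterol from lysosomes, had changes of 0.01 ± 0.12 and 0.01 ± 0.09 (adjusted p = 0.974 and 0.964). The signals of Npc2 were 8790 and 8795 against 9080 and 9542. The intervals of these 3 genes lay between -0.27 and 0.29, so RNA of the saposin precursor and of both Niemann-Pick proteins differed by far less than 2-fold.

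Gm2a, the gene of the GM2 activator protein, another lipid transfer protein, gave unlike values by probe set. On its brightest probe set the signals were 4185 and 4995 in immature DC and 4044 and 4105 in NKT-modulated DC, with a change of -0.18 ± 0.09 (adjusted p = 0.261). On the other probe set they were 1112 and 1413 against 630 and 548. That probe set was lower in NKT-modulated DC, with a change of -0.93 ± 0.12 (adjusted p = 0.00541). Averaged over both probe sets the change of Gm2a was -0.55 (adjusted p = 0.00984). Both probe sets had changes below 0, of unlike size, and the reason was not tested. Gm2a was the only 1 of the 31 genes to be called by another probe set and not by the brightest.

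Mttp encodes the microsomal triglyceride transfer protein, which loads CD1d with lipid in the endoplasmic reticulum. Its brightest probe set was dim, with signals of 48.5 and 27.3 in immature DC and 30.4 and 3.18 in NKT-modulated DC. The spread within the NKT-modulated group exceeded the difference between groups, and the change of -0.85 ± 0.44 (adjusted p = 0.308) had an interval from -1.93 to 0.23. Without NKT-modulated replicate 1 the change was -1.44 (adjusted p = 0.0996), and without NKT-modulated replicate 2 it was -0.25 (adjusted p = 0.760). The change of Mttp could not be placed within 2-fold.

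Of the 8 lysosomal hydrolase genes, 0 passed the test in limma, and 0 had an unadjusted p under 0.05; over all genes these shares were 12.9% and 28.2%, so that in a list of 8 a count of 0 called is near the background. Their changes ran from -0.20 to 0.18, with a median of -0.04, and the 95% intervals of all 8 lay within a 2-fold change. Hexa, the alpha subunit of the enzyme that trims the ganglioside GM2, had signals of 6529 and 6258 against 5606 and 5821 and a change of -0.20 ± 0.09 (adjusted p = 0.244). Its arrays did not overlap between the groups, but the difference was small.

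Gla encodes alpha-galactosidase A, which removes a terminal alpha-linked galactose and can thereby destroy alpha-galactosylceramide-type NKT cell ligands. Its signals were 777 and 967 in immature DC and 820 and 722 in NKT-modulated DC. The groups overlapped, and the change was -0.02 ± 0.11 (adjusted p = 0.950). Galc, the galactosylceramidase gene, and Glb1, the beta-galactosidase gene, had changes of 0.18 ± 0.13 and -0.05 ± 0.11 (adjusted p = 0.496 and 0.852). Arsa, the arylsulfatase that removes sulfate from sulfatide, had signals of 672 and 792 against 683 and 601, and a change of -0.02 ± 0.11 (adjusted p = 0.940).

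The remaining lysosomal enzymes stayed in the same range. Neu1, the lysosomal sialidase, had a change of -0.13 ± 0.12 (adjusted p = 0.593), with signals of 614 and 674 against 481 and 552. Asah1, the acid ceramidase that cuts ceramide into sphingosine and a fatty acid, had signals of 4368 and 4065 against 3826 and 3769. Its change was -0.15 ± 0.10 (adjusted p = 0.431). Smpd1, the acid sphingomyelinase, had a change of 0.07 ± 0.15 (adjusted p = 0.838). Of the 8 enzymes the sign of 5 (Gla, Galc, Glb1, Arsa and Smpd1) turned under at least 1 other scaling or array choice, so none of these is given a direction.

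Promoter windows from RefSeq (GRCm38.p6) matched 29 of the 33 listed genes; Cd1d1, Cd1d2, Npc1 and Asah1 had no entry. In the 250 bases before a start site the E-box CACGTG, the core of the lysosomal gene element bound by TFEB and a palindrome, so read alike on both strands, stood in 8 of the 29 genes (27.6%), against 6.86% of the 27025 genes with a window and 7.61% of the 17492 that code for protein. Windows of like base content were not compared. Genes with several windows, such as Cers2 and Sphk1, were counted if any window held the E-box. Of the listed lysosomal hydrolases, Gla, Glb1 and Arsa held it, as did Smpd2, Degs1, Cers2, Cers6 and Sphk1 among the other genes. The sites are a feature that the naming of the genes did not use. Those of the 3 hydrolases and of Degs1 are shown as examples. Capitals mark the E-box, with 10 bases on each side, 5′ to 3′ on the strand of the gene.
Gla, first site, chrX:134601217-134601242, minus strand: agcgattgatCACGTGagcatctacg
Gla, second site, chrX:134601184-134601209, minus strand: agatctcggtCACGTGagcaactctc
Glb1, chr9:114401020-114401045, plus strand: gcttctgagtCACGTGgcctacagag
Arsa, chr15:89477425-89477450, minus strand: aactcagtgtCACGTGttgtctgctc
Degs1, chr1:182282223-182282248, minus strand: gagcctcaatCACGTGgtccagtcag

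The E-box lay 227 and 194 bases before the start of Gla, 48 before that of Glb1, 16 before that of Arsa and 43 before that of Degs1. These 4 genes had changes of -0.02, -0.05, -0.02 and -0.08. The other E-box genes varied more: Smpd2 had a change of -0.31, Cers2 of 0.05 and Sphk1 of 0.61. Among all of these only Sphk1 was called, and Cers6 was not measured. Over all genes 12.9% were called, so this count is near the background. Tfeb itself had signals of 526 and 509 in immature DC and 136 and 279 in NKT-modulated DC, with a change of -1.15 ± 0.33 that did not pass (adjusted p = 0.0837). A match of letters is a description and does not show that a factor was bound. Other motifs were searched on both strands in the same windows. The GC box GGGCGG stood in 19 of the 29 genes (65.5%) and in 45.8% of protein-coding genes, and the CCAAT box in 12 (41.4%) and 39.5%. The STAT motif TTCNNNGAA stood in 6 (20.7%) and 7.65%, and the interferon regulatory factor motif AANNGAAA, which can overlap it, in 5 (17.2%) and 22.5%.

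Outside the lysosome, the hydrolase genes gave wider intervals. Gba2 encodes the glucosylceramidase of the endoplasmic reticulum and plasma membrane. Its signals were 224 and 297 in immature DC and 113 and 131 in NKT-modulated DC, and the groups did not overlap. The change was -0.80 ± 0.20, with an adjusted p of 0.0586, so that it did not pass. It had an adjusted p of 0.0469 with a pseudocount of 1, 0.0376 without further normalization and 0.0178 when probe sets with a mean signal under 64 were left out. It had an adjusted p between 0.092 and 0.266 without any 1 array, and a change of -0.32 (adjusted p = 0.435) as the mean over its probe sets. Its other probe set was dim, with signals from 5.16 to 9.79 and a change of 0.16 ± 0.21.

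Asah2, the neutral ceramidase, had signals of 67.2 and 80.8 against 67.4 and 76.4 and a change of 0.04 ± 0.25 (adjusted p = 0.948). Smpd2, a neutral sphingomyelinase, had signals of 287 and 174 against 160 and 149. Its immature arrays differed from each other by 0.83 on the log2 scale, more than the change of -0.31 ± 0.29 (adjusted p = 0.593). The interval of Asah2 ran from -0.57 to 0.65 and that of Smpd2 from -1.02 to 0.40.

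**Figure D2:**
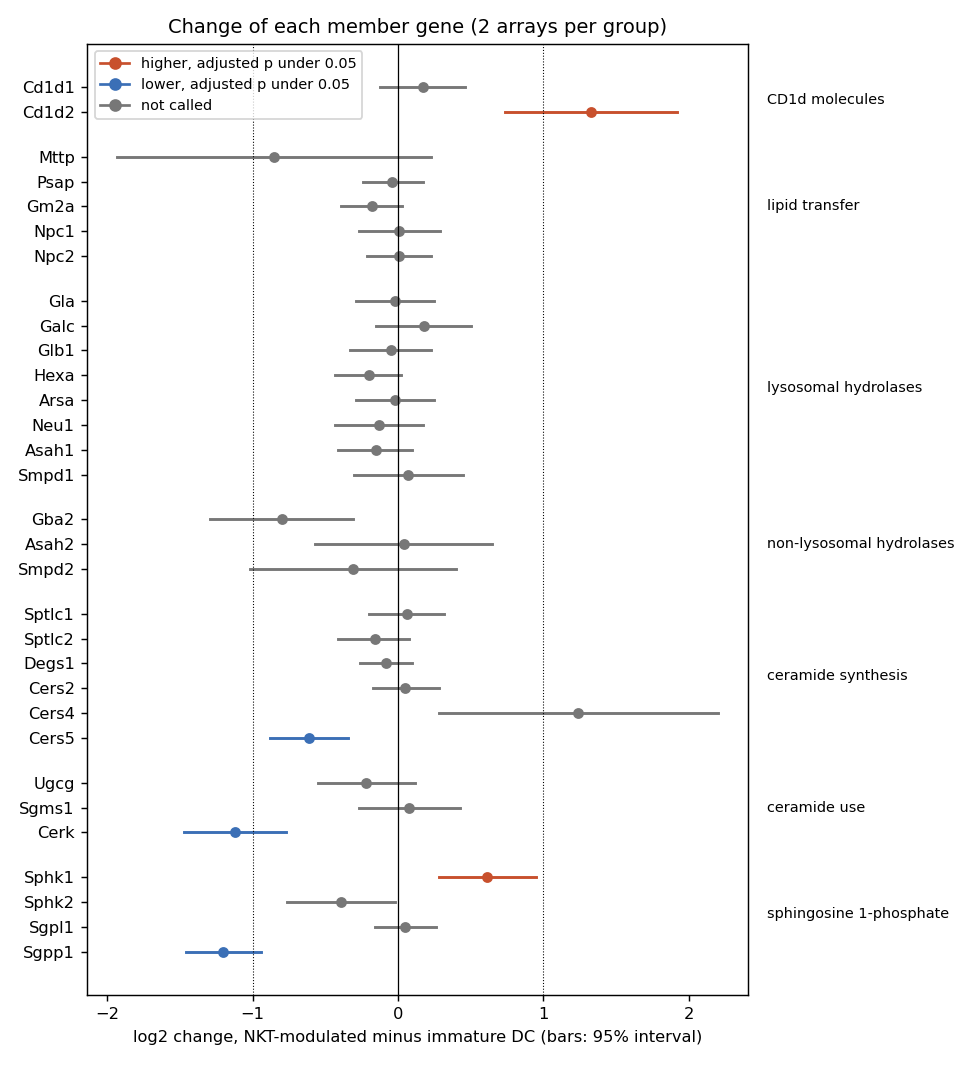
Log2 change of each measured gene, NKT-modulated minus immature DC, with its 95% interval from limma (2 arrays per group); dotted lines mark a 2-fold change in either direction. Orange genes (Cd1d2 and Sphk1) were higher and blue genes (Cers5, Cerk and Sgpp1) lower at an adjusted p under 0.05, and the intervals of all 8 lysosomal hydrolases lie between the dotted lines.

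Ceramide synthesis begins with serine palmitoyltransferase, whose subunits Sptlc1 and Sptlc2 encode. Their changes were 0.06 ± 0.11 and -0.16 ± 0.10 (adjusted p = 0.794 and 0.397). The signals of Sptlc2 were 1147 and 1158 in immature DC and 929 and 956 in NKT-modulated DC. Degs1, the desaturase that makes ceramide from dihydroceramide, had nearly the same signals in all 4 arrays, 6984 and 7058 against 7048 and 6633. The change of Degs1 was -0.08 ± 0.07 (adjusted p = 0.568), among the narrowest intervals of the list, from -0.26 to 0.10.

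The ceramide synthases attach acyl chains of differing length, and of their 3 measured genes 1 passed the test. Over all genes 12.9% were called, and in a list of 3 this count says nothing particular about the synthases. Differences between the changes of these genes were not tested. Cers2, which prefers very long chains, had a change of 0.05 ± 0.09 (adjusted p = 0.797), with signals of 1547 and 1969 against 1706 and 1716. Cers5, which prefers the palmitoyl chain, had signals of 2241 and 2285 in immature DC and 1306 and 1506 in NKT-modulated DC. Both NKT-modulated arrays lay below both immature arrays. Cers5 fell by 0.61 ± 0.11 on the log2 scale, a fold of 1.53 (adjusted p = 0.0209). It had an adjusted p of 0.0878 without immature replicate 1, 0.112 without NKT-modulated replicate 1 and 0.114 without the intensity trend of the variance.

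Cers4 was dim. Its signals were 18.4 and 52.8 in immature DC and 110 and 77.6 in NKT-modulated DC. The groups did not overlap, but the immature arrays differed by 1.02 on the log2 scale. The change of 1.24 ± 0.39 did not pass (adjusted p = 0.110), and without immature replicate 1 it was 0.73 (adjusted p = 0.343). When dim probe sets were left out of the fit its adjusted p was 0.0437. The other probe sets of Cers4 had changes of 0.77 ± 0.35 and 0.16 ± 0.29.

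Of the listed enzymes, 3 turn ceramide into glucosylceramide, sphingomyelin or ceramide 1-phosphate. Ugcg, the glucosylceramide synthase that starts the synthesis of most glycosphingolipids, had signals of 529 and 648 against 401 and 476. The change was -0.22 ± 0.14 (adjusted p = 0.403), and its other probe sets had changes of -0.04 ± 0.26 and -0.06 ± 0.31. Sgms1, a sphingomyelin synthase, had signals of 442 and 418 against 384 and 403 and a change of 0.08 ± 0.14 (adjusted p = 0.801). Neither passed, and the intervals of both brightest probe sets lay within a 2-fold change.

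Cerk, the kinase that phosphorylates ceramide to ceramide 1-phosphate, fell. Its signals were 603 and 690 in immature DC and 230 and 274 in NKT-modulated DC. The groups were well apart, and the gap between the normalized immature arrays was 0.01 on the log2 scale. The change was -1.12 ± 0.14, a fold of 2.17 (adjusted p = 0.00591), with an interval from -1.47 to -0.77. Without any 1 array it was between -0.98 and -1.25, with an adjusted p between 0.0174 and 0.0402.

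The sphingosine 1-phosphate genes held changes in both directions. Sphk1 and Sphk2 encode the kinases that make sphingosine 1-phosphate. The signals of Sphk1 were 255 and 324 in immature DC and 387 and 385 in NKT-modulated DC. The groups did not overlap, and Sphk1 rose by 0.61 ± 0.14 on the log2 scale, a fold of 1.53 (adjusted p = 0.0417). It was the least certain of the 5 calls: the adjusted p was 0.228 without further normalization, with a change of 0.40, and between 0.0995 and 0.162 without any 1 array. Its other, dimmer probe set had a change of 0.40 ± 0.25 (adjusted p = 0.390).

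Sphk2 had signals of 585 and 580 in immature DC and 346 and 419 in NKT-modulated DC. These groups did not overlap, and the change was -0.39 ± 0.15, which did not pass (adjusted p = 0.173). The other Sphk2 probe set had a change of -0.42 ± 0.32. The difference between the changes of both kinase genes was not tested.

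Sgpp1, the phosphatase that returns sphingosine 1-phosphate to sphingosine, had the smallest p of the list. Its signals were 1214 and 1544 in immature DC and 524 and 534 in NKT-modulated DC. The NKT-modulated arrays were nearly equal and lay far below both immature arrays. Sgpp1 fell by 1.20 ± 0.11 on the log2 scale, a fold of 2.30 (adjusted p = 0.00176), with an interval from -1.46 to -0.94. Its next probe set had signals of 660 and 995 against 275 and 291 and fell by 1.29 ± 0.17 (adjusted p = 0.00589). The third was dim, with a change of -0.68 ± 0.24 (adjusted p = 0.139). Without any 1 array the change was between -1.12 and -1.30, with an adjusted p between 0.00712 and 0.0197.

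Sgpl1, the lyase that breaks sphingosine 1-phosphate down for good, had signals of 1928 and 2149 against 2164 and 1915. The groups overlapped, and the change was 0.05 ± 0.09 (adjusted p = 0.797). Sgpp1 and Sgpl1, whose enzymes each remove sphingosine 1-phosphate, thus gave unlike values, with Sgpp1 lower and the interval of Sgpl1 from -0.16 to 0.26. The difference between the changes of Sgpp1 and Sgpl1 was not tested.

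**Figure D3:**
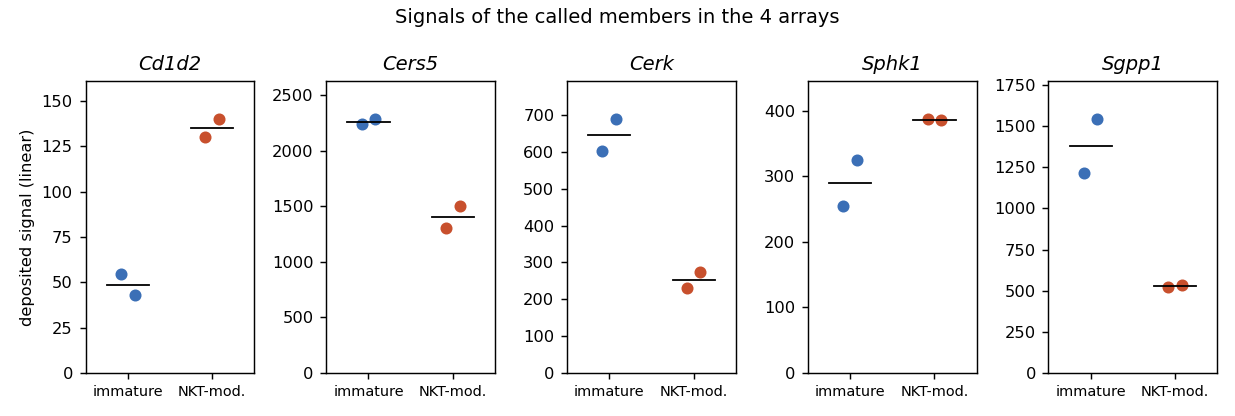
Deposited linear signals of the 5 called genes in each array (points; the line is the mean of the 2 arrays of a group; each axis starts at 0). The arrays of the groups do not overlap for any of the 5, with Cd1d2 at 54.4 and 42.7 against 130 and 140 and Sgpp1 at 1214 and 1544 against 524 and 534.

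The promoter windows of the 3 genes that were lower, Cers5, Cerk and Sgpp1, are shown because these genes moved in the same direction and each had a single start site in the RefSeq table. Only bases before the annotated 5′ end of the gene are given, on the strand of the gene. For Cerk that end lies upstream of the start site, which left 132 of the 250 bases. Capitals mark a GC box in Cers5 and a CCAAT box in Sgpp1, the only matches among the 5 motifs.
Cers5, chr15:99772516-99772765, minus strand: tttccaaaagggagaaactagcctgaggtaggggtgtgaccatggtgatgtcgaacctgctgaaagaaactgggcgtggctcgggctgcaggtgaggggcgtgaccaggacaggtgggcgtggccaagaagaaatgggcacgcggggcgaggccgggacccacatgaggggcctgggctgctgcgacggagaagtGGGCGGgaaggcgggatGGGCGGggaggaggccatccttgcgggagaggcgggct
Cerk, chr15:86186260-86186391, minus strand: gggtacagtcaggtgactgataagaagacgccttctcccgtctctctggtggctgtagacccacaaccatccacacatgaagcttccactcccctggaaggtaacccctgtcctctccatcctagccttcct
Sgpp1, chr12:75735730-75735979, minus strand: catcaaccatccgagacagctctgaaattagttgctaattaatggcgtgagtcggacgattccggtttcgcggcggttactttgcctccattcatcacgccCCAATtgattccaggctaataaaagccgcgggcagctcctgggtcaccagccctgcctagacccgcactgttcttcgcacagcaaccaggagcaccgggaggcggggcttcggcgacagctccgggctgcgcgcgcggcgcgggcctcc

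The GC content of these windows was 65.6% for Cers5, 55.3% for Cerk and 61.2% for Sgpp1. Cers5 held 2 GC boxes and Sgpp1 1 CCAAT box, whereas the shorter window of Cerk held 0 matches to any of the 5 motifs. No motif was thus shared by all 3 windows.

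Probe sets of the same gene allowed a further reading of the calls. The 31 genes had 57 probe sets, of which 2 were called higher and 5 lower, or 7 in all, against 11.1% of all probe sets on the arrays. Of the 19 genes with several probe sets, 0 had calls in opposite directions. Sgpp1 was called by 2 of 3 probe sets and Sphk1 by 1 of 2. Cd1d2, Cers5 and Cerk had a single probe set each, so their calls have no second reading on these arrays.

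**Figure D4:**
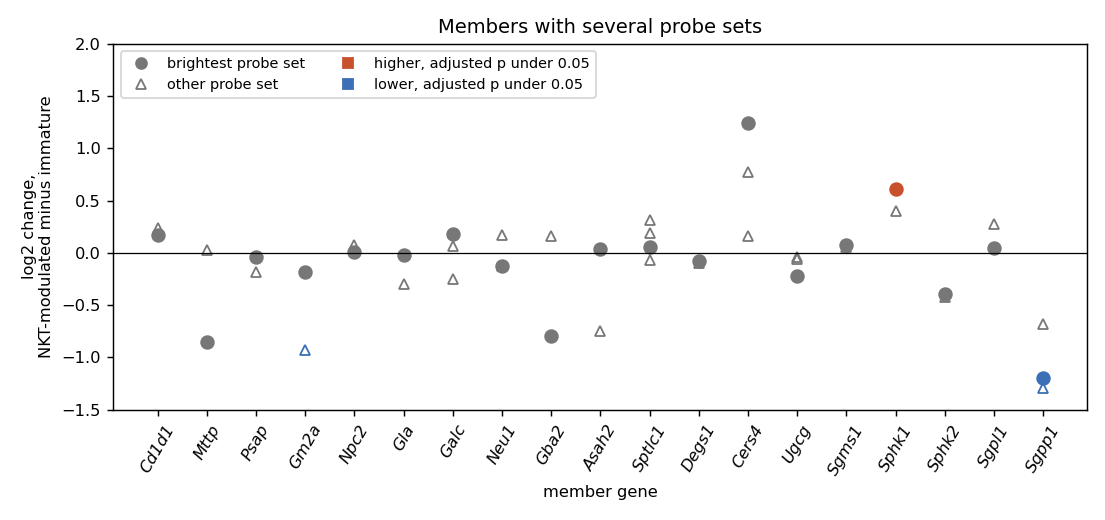
Log2 change, NKT-modulated minus immature DC, of every probe set of the 19 genes with more than 1 (circles, brightest probe set; triangles, others). The probe sets of Sgpp1 all lie below 0, those of Gm2a lie at -0.18 and -0.93, and those of Gba2 lie on either side of 0.

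Related genes of the same pathways, 65 in 4 lists, were set beside these. Of 51 measured, 1 was higher and 9 were lower in NKT-modulated DC, or 19.6%, against 12.9% of all genes (5.99% higher and 6.9% lower), with a median log2 change of -0.18 against -0.04 over all genes. Of 13 genes of CD1d assembly and traffic, a list that includes the CD1d light chain B2m and the AP-3 adaptor, 0 were higher and 2 lower. Scarb1, a lipoprotein receptor, fell by 0.79 ± 0.11 (adjusted p = 0.00752), with signals of 1171 and 1493 in immature DC and 673 and 707 in NKT-modulated DC. Lrp1, an endocytic receptor for lipoproteins, fell by 0.61 ± 0.11 (adjusted p = 0.0214), from 1376 and 1847 to 951 and 974. In both genes the NKT-modulated arrays lay below the immature arrays.

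Of 12 further genes of lysosomal lipid and glycan breakdown, 1 was higher and 3 were lower, or 33.3% called, against 12.9% of all genes. Smpdl3b, a sphingomyelinase-like phosphodiesterase of the cell surface, rose by 0.99 ± 0.13 (adjusted p = 0.00559), with signals of 685 and 639 in immature DC and 1192 and 1196 in NKT-modulated DC. Gusb, beta-glucuronidase, fell by 0.62 ± 0.08 (adjusted p = 0.00649), from 4675 and 4988 to 3091 and 3210. Manba, beta-mannosidase, and Fuca1, alpha-fucosidase, fell by 0.74 ± 0.14 and 0.58 ± 0.10 (adjusted p = 0.0225 and 0.0214). The 3 enzymes that fell are known mainly for removing sugars from glycoproteins and proteoglycans, and 1 of the 3 probe sets of Fuca1 was called.

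Of 14 further genes of sphingolipid and glycosphingolipid synthesis, 0 were higher and 3 lower, or 21.4% called, against 12.9% of all genes. B4galt6, a lactosylceramide synthase that acts next after Ugcg, fell by 1.27 ± 0.11 (adjusted p = 0.00136), with signals of 1338 and 1716 in immature DC and 557 and 567 in NKT-modulated DC. The NKT-modulated arrays of B4galt6 were nearly equal and far below the others, and 3 of its 4 probe sets were called. Ormdl1, an inhibitor of serine palmitoyltransferase, fell by 0.81 ± 0.09 (adjusted p = 0.00302), from 1716 and 1913 to 971 and 944. B4galnt1, the synthase of the gangliosides GM2 and GD2, fell by 0.68 ± 0.09 (adjusted p = 0.00647), from 1432 and 1730 to 896 and 906, on 1 of 2 probe sets.

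Of 12 further genes of ceramide breakdown and sphingosine 1-phosphate signalling, 0 were higher and 1 lower. That is 8.33% called, against 12.9% of all genes, and the count is near the background. Plpp1, a lipid phosphatase of the cell surface, fell by 0.73 ± 0.16 (adjusted p = 0.0378), with signals of 1024 and 1569 in immature DC and 716 and 666 in NKT-modulated DC. Of the receptor genes for sphingosine 1-phosphate, S1pr1, S1pr3, S1pr4 and S1pr5 were measured, and 0 of these 4 passed (limma); S1pr1 had a change of -0.61 (adjusted p = 0.198) at an unadjusted p under 0.05. S1pr2 is not analysed here. Without NKT-modulated replicate 1, 2 of the 51 related genes were lower in place of 9, and without the intensity trend 0 were higher and 2 lower.

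**Figure D5:**
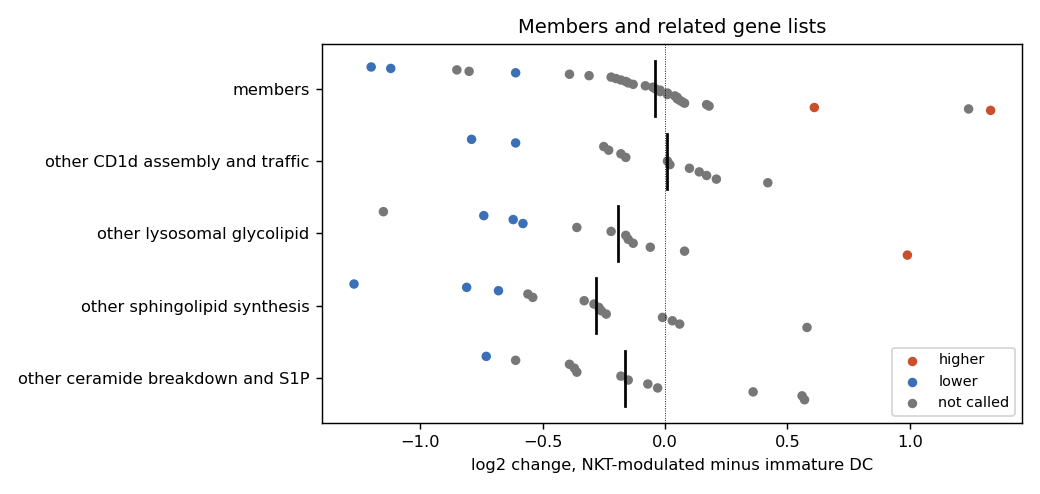
Log2 change, NKT-modulated minus immature DC, of the 31 measured genes and of the 4 related lists (points, 1 gene each; vertical bars, median of the list). Orange points were higher and blue points lower at an adjusted p under 0.05; the medians run from -0.28 for other sphingolipid synthesis to 0.01 for CD1d assembly and traffic.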

How the data were processed

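RNA of 2 immature DC and 2 NKT-modulated DC samples was hybridised to 1 Affymetrix array each. The deposited file holds a linear intensity for every probe set in every array. The authors analysed images with GCOS, per the submitters' processing notes; version, summary method and scaling are not stated there. According to the design text values were log transformed and corrected for bias that depends on intensity, but the deposited intensities are linear. Labels and design text differ on the number of labelling cycles, a point that stays unsettled. Triplicates are also mentioned in the design text; 4 arrays were analysed here, without detection calls, and their number limits the precision.

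Of 22690 probe sets, 64 controls were left out. Signals became log2(signal + 16) and were quantile normalized, because array quartiles differed by 0.27, over the limit of 0.1. Fold changes of signals near 16 are understated. A single gene symbol was given for 20380 of 22626 probe sets, several for 691 and none for 1555; 20351 symbols were updated by gene ID through RefSeq (GRCm38.p6). The fit used limma 3.58.1 (R 4.3.3; lmFit, then eBayes with a variance trend on intensity; two-sided tests; 2 residual and 4.13 prior degrees of freedom), adjusted by Benjamini-Hochberg over all 22626 probe sets, threshold 0.05. Every listed gene was to be named, up to 4 called genes of each related list, and up to 3 bright genes of a marker list. Cd3d, Cd3e, Batf3, Irf8, Cd209a, Flt3, Tfeb and S1pr1 were named after their values were seen. The genes and lists were chosen with earlier results of these data known. In simulated data with the spread of these arrays (22626 probe sets), few probe sets were changed. Summed over all runs, 335 changed by a log2 of 1, 335 by 2 and 330 by 3. Of these, 29.6%, 74.3% and 93.6% were recovered, and 5.19% of calls were false. In the data a far larger share, 11.1% of probe sets, was called, so these rates need not hold there. Alternatives covered the pseudocount, normalization, variance trend, dim probe sets, probe set choice, threshold, each array left out and the family of adjustment, the last chosen after seeing the data.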

Additional observations from a re-analysis of the deposited data

How the results depend on the processing

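Of 402 comparisons of a listed gene's change with an alternative, 346 kept direction and side of the threshold. The count of listed genes higher, 2, was 3 without dim probe sets, 1 with a pseudocount of 64, without further normalization, without the intensity trend and with the mean over probe sets, 0 at an adjusted p under 0.001, and 0 with any 1 array left out. The count lower, 3, was 4 with a pseudocount of 1, without further normalization, without dim probe sets and with the mean over probe sets, 2 without the trend, 0 at 0.001 and 2 to 3 with 1 array left out. At 0.001, 0 listed genes passed in limma, against 8 with an unadjusted p under 0.05. Over all genes, 742 higher and 855 lower became 384 and 272 without the trend, 131 and 22 at 0.001, and 510 and 388, 510 and 402, 397 and 305, and 430 and 406 without immature replicates 1 and 2 and NKT-modulated replicates 1 and 2, in that order. The 1 higher and 9 lower related genes became 2 higher with cyclic loess or without dim probe sets, 11 lower with a pseudocount of 1 or without further normalization, 12 lower without dim probe sets, 0 and 2 without the trend, 0 and 0 at 0.001, and 1 higher and 2 to 8 lower with 1 array left out; alternatives for related genes were added after seeing the data. Of calls over all genes, 46.5% were higher, 35.2% without further normalization, 54% with cyclic loess (840 higher and 715 lower) and 58.5% without the trend. Values without further normalization put the median change at -0.12 in place of -0.04.

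Changes that turned sign were not called in either setting. Without further normalization they were Psap 0.07, Npc1 -0.12, Galc -0.03, Smpd1 -0.13, Asah2 -0.03, Sptlc1 -0.03, Cers2 -0.03 and Sgms1 -0.12; with cyclic loess Gla 0.04, Glb1 0.01 and Arsa 0.05; with the mean over probe sets Galc 0 and Asah2 -0.36. With 1 array left out, the changes ranged as follows: Psap -0.11 to 0.03, Npc1 -0.08 to 0.11, Glb1 -0.16 to 0.06, Smpd1 -0.10 to 0.24, Asah2 -0.09 to 0.18, Smpd2 -0.71 to 0.10, Cers2 -0.03 to 0.13, Gla -0.09 to 0.05, Arsa -0.10 to 0.05, Sgms1 -0.05 to 0.21, Sptlc1 -0.06 to 0.18, Sgpl1 -0.01 to 0.11 and Npc2 -0.08 to 0.10. The cause was not tested. No paired analysis was possible because the labels give the arrays of the 2 groups no shared replicate numbers. Mttp, with a mean signal under 64, gave no value without dim probe sets. No detection calls were used, so signal over background was not assessed.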
